A study of Mus musculus with 6 samples.

Results

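Troponin is the calcium switch of the striated muscle thin filament. The data here describe its 8 subunit genes in the gastrocnemius, the large and mainly fast-twitch calf muscle, of aged and young mice. The members were all probe sets that the platform's gene table assigns to exactly 1 of the symbols Tnnc1, Tnnc2, Tnni1, Tnni2, Tnni3, Tnnt1, Tnnt2 and Tnnt3. This gave 12 probe sets for 8 of the 18193 genes named on the array, and 0 troponin probe sets carried several symbols. Total RNA of aged muscle (replicates 51, 52 and 53) and of young muscle (replicates 1, 2 and 3) was hybridised to 1 Affymetrix mouse array per sample. All mice were male, of the strain written C57B1/6 in the labels, with a normal karyotype, and no treatment or transgene is named for either group. The labels give no ages, and whether each array stands for its own animal is not said. The p-values therefore reflect the spread among these 6 samples alone, and that spread may be technical.

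Each troponin complex holds 3 kinds of subunit. Troponin C binds calcium, troponin I holds the filament off in its absence, and troponin T ties the complex to tropomyosin. Separate genes encode the forms of slow-twitch fibres (Tnnc1, Tnni1, Tnnt1), fast-twitch fibres (Tnnc2, Tnni2, Tnnt3) and heart (Tnni3, Tnnt2), and the slow troponin C gene Tnnc1 also serves the heart. Slow fibres make up a small part of the gastrocnemius. In a bulk sample, fewer cells of a type and less RNA per cell cannot be told apart.

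Each array reported 45101 probe sets, with a median signal between 637 and 833. Defining transcripts of skeletal muscle fibres were present on every array. All 8 listed fibre markers were measured and 0 passed the test, near the share of 1.39% called among all 11763 measured genes. All 8 had a negative log2 change, aged minus young, with a median of -0.61. On 5 of them the 3 aged arrays lay below the 3 young ones, as on 8.74% of all tested probe sets. Their summed signal was between 1767887 and 2258434 on aged arrays and between 2538029 and 3025957 on young arrays, lower on every aged array. The log2 ratio of 3 prime to 5 prime signal of the actin and Gapdh control probe sets, a measure of RNA integrity that rises as RNA breaks down, was 2.11, 2.00 and 2.86 on aged replicates 51, 52 and 53, against 1.71, 1.77 and 1.75 on young replicates 1, 2 and 3. The groups did not overlap in this ratio (difference 0.58, two-sided exact permutation p = 0.1, the smallest that 3 against 3 arrays can give). Aged replicates 52 and 53 were washed on fluidics station 2, and the other 4 arrays on station 1. The part of these measures in the results was not tested, and values within station 1 are given below.

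Large differences between aged and young muscle were found among the slow troponins. The slow and cardiac troponin C transcript Tnnc1 fell 8.02-fold. The slow troponin T transcript Tnnt1 fell by 4.77 on the log2 scale, or -4.00 with a pseudocount of 219. Slow troponin I, Tnni1, was at -2.63, or -2.07 with the pseudocount, and did not pass the test. The aged means of Tnnt1 and Tnni1 lay under the filter on dim signals, so the size of both differences is uncertain. The fast genes Tnnc2, Tnni2 and Tnnt3 differed by at most 1.56-fold by their brightest probe sets and did not pass. The cardiac gene Tnni3 was dim, and Tnnt2 varied widely among young arrays and did not pass. Of the 7 genes with a probe set above the filter on dim signals 2 passed an adjusted p of 0.05 in limma, both lower in aged muscle. Among all 11763 genes so measured 1.39% were called, 1.00% lower and 0.391% higher. By probe set 2 of 10 passed, where 1.05% of all 22519 tested probe sets did, 0.742% lower and 0.311% higher. Tnnt1, which passed, and Tnni1, which did not, entered the test only through their young signals. The counts are therefore a description and no test against these shares.

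Tnnt1, which anchors the complex to tropomyosin in slow fibres, had signals of 167, 301 and 617 on aged replicates 51, 52 and 53, against 7466, 9808 and 8663 on young replicates 1, 2 and 3. Every aged array lay far below every young one, and the nearest aged and young arrays were 3.60 log2 units apart. The log2 change was -4.77 ± 0.51 (limma standard error, n = 3 per group, adjusted p = 0.000497). The aged arrays differed among themselves by 3.70-fold and the young arrays by 1.31-fold. The aged mean, 8.29 ± 0.94 on the log2 scale (SD, n = 3), lay under the dim limit of 9.08, a signal of 540, so the gene entered the test through its young signals. With a pseudocount of 219 the change was -4.00, and with no filter on dim probe sets the gene passed as well (adjusted p = 1.27e-05).

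Tnnc1, the calcium sensor of slow and cardiac muscle, had signals of 1003, 1382 and 1132 on aged arrays and of 9977, 9007 and 8995 on young arrays, in the same order of replicates. All 6 signals lay above the dim limit, and replicates of each group lay close together. The log2 change was -3.003 ± 0.301 (limma standard error, n = 3 per group, adjusted p = 0.000334 in limma).

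Tnni1, the inhibitory subunit of slow fibres, had signals of 221, 357 and 684 on aged arrays and of 2011, 1796 and 3561 on young arrays. The groups did not overlap, but aged replicate 53 and young replicate 3 stood above the others of their groups. The log2 change was -2.63 ± 0.64 and did not pass (adjusted p = 0.0966 in limma). It passed within station 1, where aged replicate 51 is the lone aged array and is assumed to vary like the young ones (-3.40, adjusted p = 0.0468 in limma), and also when the fit left out aged replicate 53 (-3.06, adjusted p = 0.0495 in limma; 0.0468 to 0.447 over all alternatives), the aged array with the highest Tnni1 signal and the highest 3 prime to 5 prime ratio.

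**Figure D1:**
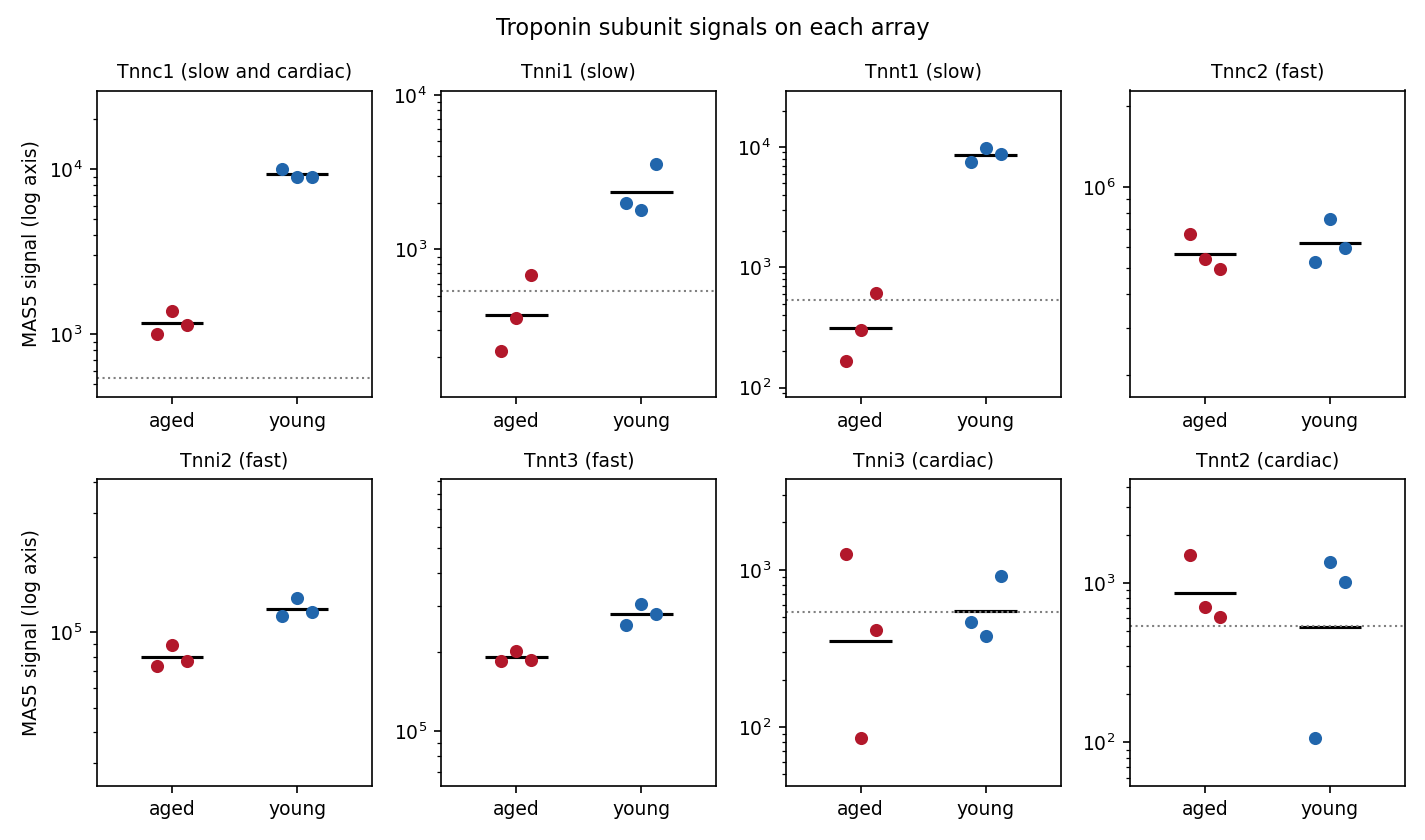
Signal of each troponin gene on each array, by its representative probe set (the brightest tested one; for Tnni3 the only one, which was dim). Points are the 3 aged and 3 young arrays, black bars are means of log2 signals, the dotted line marks the dim limit of 540 where it falls in range, and each panel has its own log axis. Aged arrays lie below all young arrays for Tnnc1, Tnni1 and Tnnt1 and, by a smaller margin, for Tnni2 and Tnnt3.

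Whether the slow subunits fell by the same amount cannot be read from these arrays, because the aged means of Tnnt1 (8.29) and Tnni1 (8.56) lay under the dim limit of 9.08. As a description chosen after the values were seen and not tested, the log2 signal of Tnnt1 less that of Tnnc1, set to 0 at the young mean, was -2.47, -2.08 and -0.76 on aged replicates 51, 52 and 53, against -0.30, 0.24 and 0.06 on young replicates 1, 2 and 3. The 3 aged values lay below the 3 young ones, with a mean difference of -1.77 (-1.21 with the pseudocount). Tnni1 and Tnnc1 overlapped in the same measure, with a difference of 0.37. Aged replicate 51 was the lowest and aged replicate 53 the highest of the aged arrays for both Tnnt1 and Tnni1, whereas Tnnc1 was highest on aged replicate 52.

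The regions before the starts of the slow genes, all 3 lower on every aged array, are shown beside that of fast Tnnc2, whose groups overlapped. They are the 250 bases upstream of the annotated start in RefSeq on GRCm38.p6, 5′ to 3′ on the strand of the gene. They lie at chr14:31208062-31208311 (plus strand) for Tnnc1, chr1:135799171-135799420 (plus strand, the more upstream of 2 annotated starts) for Tnni1, chr7:4515976-4516225 (minus strand) for Tnnt1 and chr2:164779735-164779984 (minus strand) for Tnnc2. Capitals mark matches, on either strand, to the E-box CANNTG of myogenic helix-loop-helix factors, the MCAT element CATTCC of TEAD factors, the MEF2 motif and the TATA box TATAAA.
Tnnc1: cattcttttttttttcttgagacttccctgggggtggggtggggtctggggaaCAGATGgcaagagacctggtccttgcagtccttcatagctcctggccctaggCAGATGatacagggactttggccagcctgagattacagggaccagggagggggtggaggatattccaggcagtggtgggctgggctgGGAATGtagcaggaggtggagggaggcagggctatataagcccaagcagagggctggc
Tnni1: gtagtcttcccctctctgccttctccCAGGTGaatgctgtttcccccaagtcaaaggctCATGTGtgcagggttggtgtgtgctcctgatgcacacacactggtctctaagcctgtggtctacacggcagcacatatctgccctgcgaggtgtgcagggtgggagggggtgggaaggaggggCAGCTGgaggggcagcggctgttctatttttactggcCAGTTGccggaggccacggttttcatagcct
Tnnt1: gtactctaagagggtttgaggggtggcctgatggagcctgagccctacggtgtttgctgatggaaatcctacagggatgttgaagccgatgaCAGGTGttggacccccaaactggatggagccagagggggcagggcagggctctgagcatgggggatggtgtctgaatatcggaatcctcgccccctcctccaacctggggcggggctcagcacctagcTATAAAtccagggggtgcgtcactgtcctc
Tnnc2: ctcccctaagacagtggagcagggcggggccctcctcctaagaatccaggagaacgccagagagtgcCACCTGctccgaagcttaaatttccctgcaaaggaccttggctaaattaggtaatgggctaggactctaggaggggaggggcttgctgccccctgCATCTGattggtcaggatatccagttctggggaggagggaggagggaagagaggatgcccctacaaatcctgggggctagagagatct
E-boxes were found in each window, 2 for Tnnc1, 4 for Tnni1, 1 for Tnnt1 and 2 for Tnnc2. The E-box is common, being present in 66.2% of the 32851 windows of this length. Tnnc1 alone of the 4 held an MCAT match, 58 bases before the start, as did 12.6% of all windows. The window of the cardiac gene Tnnt2, searched but not shown, also held an MCAT match, 27 bases before its start, and Tnnt2 did not pass. Tnnt1 alone held the exact letters TATAAA, 30 bases before the start, as did 12.4% of all windows. The Tnnc1 window holds the similar letters tatataa near its end, which the exact search did not count. The MEF2 motif matched 0 of the 4 windows and 0.508% of all windows, and no match says only that these letters are not in this stretch. No matches of different motifs overlapped. Windows for Tnni2 and Tnnt3 were not analysed here.

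The fast genes are among the brightest features of these arrays. Fast troponin C, Tnnc2, the calcium sensor of fast fibres, had signals of 669599, 540562 and 496484 on aged replicates 51, 52 and 53 and of 525793, 760512 and 593733 on young replicates 1, 2 and 3. It was at rank 6 in mean log2 signal among 45037 probe sets that are not controls. The groups overlapped, and the log2 change was -0.13 ± 0.26 (adjusted p = 0.889 in limma).

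Fast troponin T, Tnnt3, had signals of 185567, 202184 and 186393 on aged arrays and of 253626, 304592 and 278996 on young arrays. The aged arrays lay below the young ones by a small margin, 0.33 log2 units between the nearest arrays. The change was -0.54 ± 0.21 and did not pass (adjusted p = 0.400 in limma).

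Fast troponin I, Tnni2, has 3 probe sets, which disagreed. The brightest had signals of 73322, 89423 and 76787 on aged arrays and of 115987, 136784 and 121054 on young arrays, a change of -0.64 ± 0.20 without overlap (adjusted p = 0.246 in limma). The next, nearly as bright and of a kind prone to cross-hybridisation, had 63680, 72317 and 65072 on aged arrays and 54619, 82355 and 71196 on young arrays, a change of -0.03 ± 0.21. The dimmest, from the same sequence record as the one before, was at 0.78 ± 0.88. Neither of these passed, and averaging all 3 gave 0.036.

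Other bright transcripts were examined beside Tnni2 and Tnnt3. Of the 165 probe sets at least as bright as the brightest of Tnni2, 120 had a negative change, with a median of -0.16, while the median over all 22519 tested probe sets was 0.0079. The skeletal actin gene Acta1, the main thin filament actin, was at -0.63 ± 0.22 and the muscle creatine kinase gene Ckm at -0.77 ± 0.27, and neither passed (adjusted p = 0.307 and 0.320 in limma). On 5 of the 10 tested troponin probe sets the 3 aged arrays lay below the 3 young ones, as on 8.74% of all tested probe sets. On 0 they lay above, as on 7.41%. Those of Tnnt1 and Tnni1 are among the 5 and entered the test only through their young signals.

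**Figure D2:**
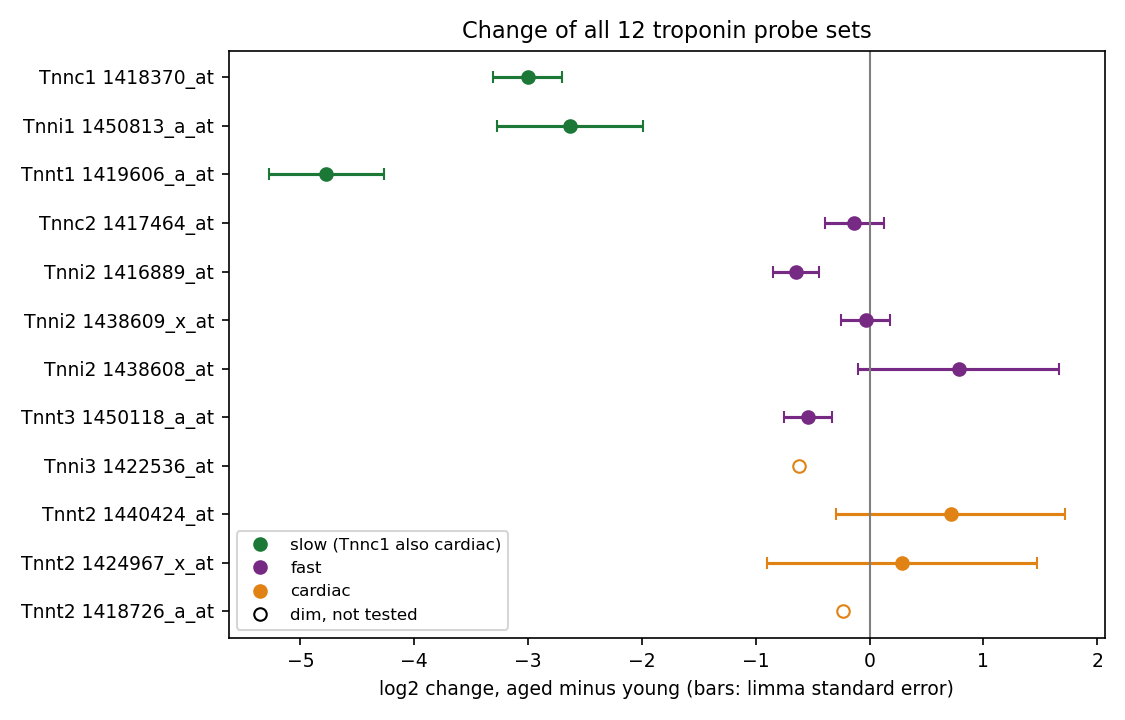
Log2 change, aged minus young, of all 12 troponin probe sets, with limma's standard error for the 10 tested ones and open circles for the 2 dim ones. The 3 slow probe sets lie between -4.77 and -2.63, while those of the fast and cardiac genes lie between -0.64 and 0.78.

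**Figure D3:**
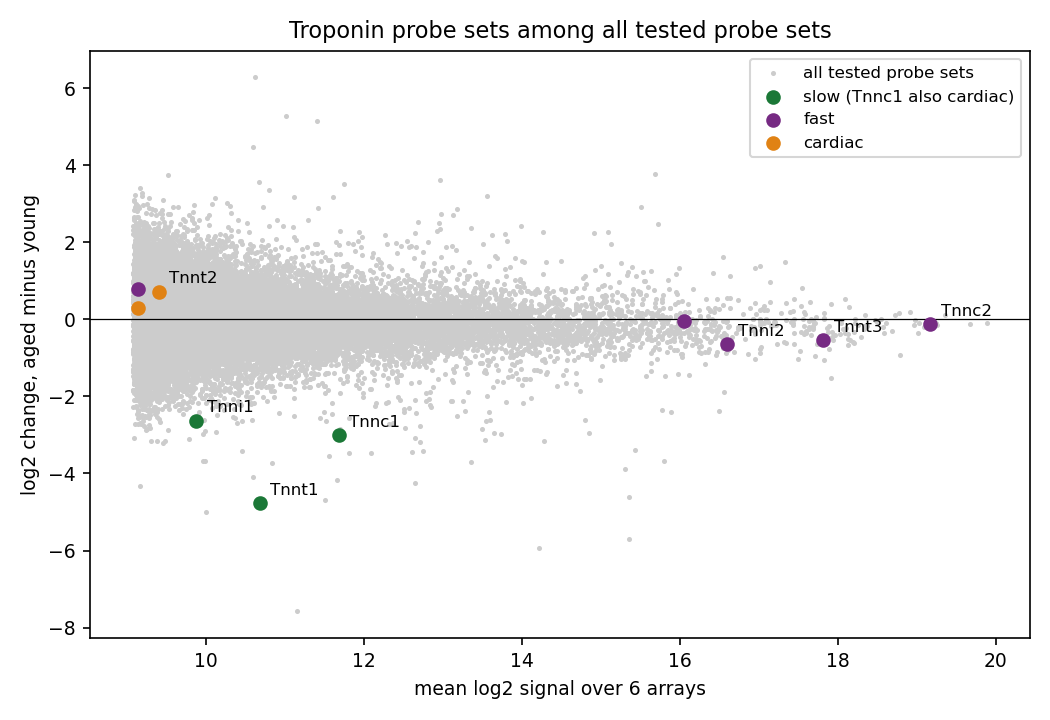
Log2 change, aged minus young, against mean log2 signal over the 6 arrays for the 22519 tested probe sets (grey), with the 10 tested troponin probe sets in colour. The 3 slow probe sets lie between -4.77 and -2.63. Of the 5 fast ones 4 lie at the bright end between -0.64 and -0.03, and the other, of Tnni2, lies just above the dim limit at 0.78.

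Pairing each slow subunit with its fast counterpart addressed whether the 2 forms changed unequally. The log2 signal of the slow gene less that of the fast gene was taken on each array and set to 0 at the young mean, since levels of different probe sets cannot be set against each other. For troponin C, Tnnc1 less Tnnc2 was -3.33, -2.56 and -2.72 on aged replicates 51, 52 and 53 and 0.33, -0.35 and 0.01 on young replicates 1, 2 and 3. For troponin I, Tnni1 less Tnni2 was -2.64, -2.24 and -1.08 on aged arrays and -0.12, -0.52 and 0.64 on young arrays. For troponin T, Tnnt1 less Tnnt3 was -5.10, -4.37 and -3.22 on aged arrays and -0.07, 0.06 and 0.01 on young arrays.

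In each pair the slow form was lower relative to the fast form on every aged array than on any young array. The difference was -2.87 for troponin C, -1.99 for troponin I and -4.23 for troponin T. With the pseudocount it was -2.65, -1.43 and -3.46 in the same order. The sizes for troponin I and T are uncertain, since the aged means of Tnni1 and Tnnt1 lay under the dim limit. Each gave the two-sided exact permutation p = 0.1, also after Benjamini-Hochberg adjustment over the 3 pairs, which is the smallest that 3 against 3 arrays allow. The mean of the 3 pairs was at -3.03, with an SD of 0.68 among aged and 0.25 among young arrays (n = 3 each). Within station 1, where aged replicate 51 alone stands against the young arrays, the differences were -3.33, -2.64 and -5.10. The values kept their sign in each of 13 alternatives per pair, between -3.33 and -2.64 for troponin C, -2.92 and -1.43 for troponin I and -5.26 and -3.46 for troponin T. These alternatives are not all separate checks. Station as a covariate and station 1 alone give the same value. Leaving out or averaging probe sets cannot change troponin C and T, whose genes have 1 probe set each.

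**Figure D4:**
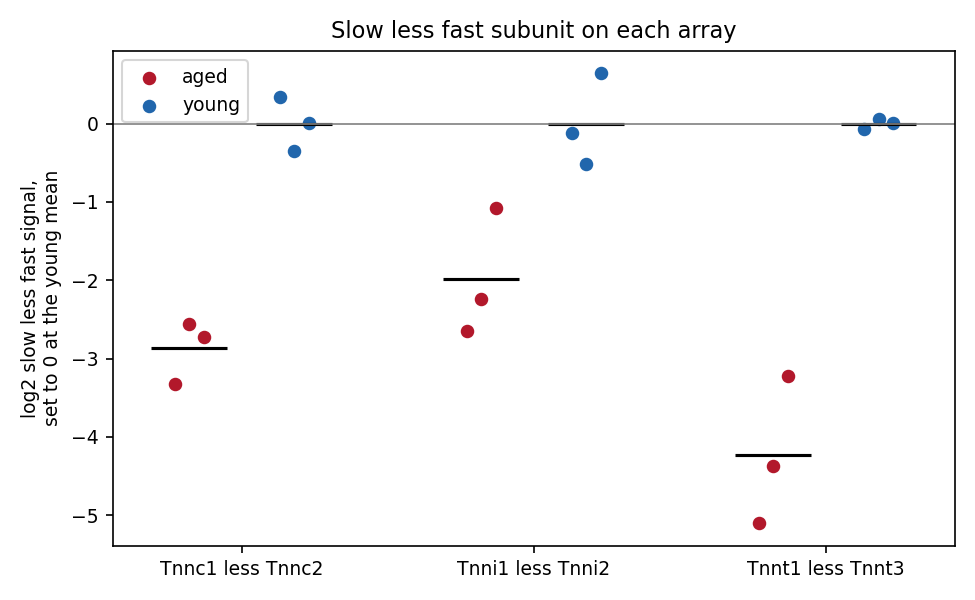
Log2 signal of each slow subunit less that of its fast counterpart on each array, set to 0 at the young mean, with black bars at group means. The 3 aged arrays lie below the 3 young arrays in every pair, nearest in Tnni1 less Tnni2, where aged replicate 53 is at -1.08 and young replicate 2 at -0.52.

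Aged and young arrays overlapped on every probe set of the cardiac genes. Tnni3, cardiac troponin I, had signals of 1259, 84.7 and 416 on aged replicates 51, 52 and 53 and of 467, 378 and 912 on young replicates 1, 2 and 3. The aged arrays alone spanned 14.9-fold, and its mean lay below the dim limit, so it was not tested (difference -0.62 on the log2 scale). Tnnt2, cardiac troponin T, which embryonic skeletal muscle also uses, has 3 probe sets. The brightest had 1495, 709 and 613 on aged arrays and 107, 1352 and 1018 on young arrays. The groups overlapped, with young replicate 1 far below the rest, and the change was 0.71 ± 1.00 (adjusted p = 0.838 in limma). The second, of a kind prone to cross-hybridisation, was at 0.28 ± 1.18 and did not pass, and the remaining, dim one was at -0.23. Tnnt2 less Tnnt3 differed by 1.25 between the groups (two-sided exact permutation p = 0.6), and Tnni3 less Tnni2 by 0.02, with no test because Tnni3 was dim.

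Troponin I and T genes lie side by side in the genome, and the slow genes Tnnt1 and Tnni1 each have a cardiac one nearby. In the RefSeq gene table of GRCm38.p6, 0 protein-coding genes separate Tnnt1 from Tnni3, and 1 separates Tnni1 from Tnnt2 (Lad1) and Tnni2 from Tnnt3 (Lsp1). The pair of Tnnt1 and Tnni3 was at -4.77 and -0.62, that of Tnni1 and Tnnt2 at -2.63 and 0.71, and that of Tnni2 and Tnnt3 at -0.64 and -0.54. The other nearest neighbours measured were chosen by position. Beside the slow genes, Ppp1r12c by Tnnt1 was at -0.50 ± 0.54, Phlda3 by Tnni1 at 0.49 ± 0.39 and Lad1 at 1.52 ± 0.75. Nisch and Sema3g by Tnnc1 were at -0.49 ± 0.21 and -0.41 ± 0.68. These 5 genes did not pass (adjusted p between 0.451 and 0.869 in limma). Beside the fast genes, Syt8 was at 0.44 ± 0.52, Lsp1 at -0.09 ± 0.48 and Mrpl23 at -0.29 ± 0.27. None of these passed either (adjusted p between 0.749 and 0.964 in limma).

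Genes that work with the troponins were described by lists of companions, by 1 probe set per gene. Among companions of slow fibres 17 were measured, of which 8 fell and 9 did not pass, and the median change was -1.28. Over all 11763 measured genes 1.39% were called, 1.00% lower, and the median was 0.0028. The called genes include the slow myosin heavy chain Myh7 (-4.68 ± 0.74), the slow light chains Myl3 (-4.24 ± 0.33) and Myl2 (-3.69 ± 0.27), the muscle LIM protein Csrp3 (-3.55 ± 0.61), the Z-disc protein Myoz2 (-2.63 ± 0.26) and the calcium pump Atp2a2 (-2.05 ± 0.22), with adjusted p between 1.98e-05 and 0.0120 in limma. Fhl1 and Actn2, outside the rule for named genes and added as the remaining called ones, fell by 1.51 and 1.88. Other tested probe sets of the called genes did not all pass. For Atp2a2 0 of 2 passed (-2.40 and -0.73, lowest adjusted p = 0.127 in limma). For Myl3 1 of 2 passed (-2.40 and -1.59), and for Fhl1 0 of 1 (-0.22). The probe set of Myl3 at -4.24 is of a kind prone to cross-hybridisation. Myh7 varied among aged arrays, with signals of 324, 2801 and 211 on aged replicates 51, 52 and 53 and 10544, 19475 and 15674 on young replicates 1, 2 and 3, so its order over the aged arrays was not that of Tnnt1. The oxygen store Mb (-0.86 ± 0.22) and the Z-disc protein Ldb3 (-0.46 ± 0.24) did not pass. Tpm3 and Mybpc1, also in this list, are counted as not passing by their brightest probe sets. Of the 3 other tested probe sets of Tpm3 2 passed, at -4.16 and -3.19. Of the 2 others of Mybpc1, at -1.91 and 0.77, 1 passed. Without young replicate 2, 5 of the 17 passed.

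Among companions of fast fibres 19 were measured, of which 2 fell and 17 did not pass, with a median of -0.29, where 1.00% of all measured genes were called lower. The 2 were the type 2A heavy chain Myh2 (-2.38 ± 0.25, adjusted p = 0.000497) and the light chain Myl1 (-1.04 ± 0.22, adjusted p = 0.0428 in limma). The heavy chains Myh4 (-0.15 ± 0.26) and Myh1 (-0.59 ± 0.23) of other fast fibres and the fast regulatory light chain Mylpf (-0.92 ± 0.27) did not pass. The probe set of Myh1 is of a kind prone to cross-hybridisation. The count was between 1 and 4 with 1 array left out.

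Among the troponins' partners on the thin filament, of 20 measured genes 2 fell and 18 did not pass, with a median of -0.53, where 1.00% of all measured genes were called lower. The cardiac actin gene Actc1 fell to signals of 16735, 8602 and 17693 on aged replicates 51, 52 and 53, against 150315, 134219 and 143748 on young replicates 1, 2 and 3 (-3.38 ± 0.27, adjusted p = 4.54e-05 in limma). Lmod2, which nucleates actin filaments, fell by 2.15. Acta1 and the tropomyosin gene Tpm1 (-1.06 ± 0.23, adjusted p = 0.0601) did not pass. Tropomyosin 3, the slow tropomyosin gene, and Tpm2 were chosen after their values were seen, because their probe sets disagree. The brightest of Tpm3 was at -0.58 ± 0.23 and did not pass, while others were at -4.16 ± 0.33 (adjusted p = 4.38e-05) and -3.19 ± 0.25 (adjusted p = 4.57e-05 in limma). A further tested one, at -0.93 ± 0.39, did not pass (adjusted p = 0.449 in limma), and a dim one was at -0.18. The brightest of Tpm2 was at -0.86 ± 0.21 and did not pass. Others fell by 1.22 and by 1.58, the latter of a kind prone to cross-hybridisation. The remaining one, at -0.53 ± 0.26, missed the threshold (adjusted p = 0.519 in limma). The count of 2 became 1 with the station as a covariate and 4 without aged replicate 53.

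**Figure D5:**
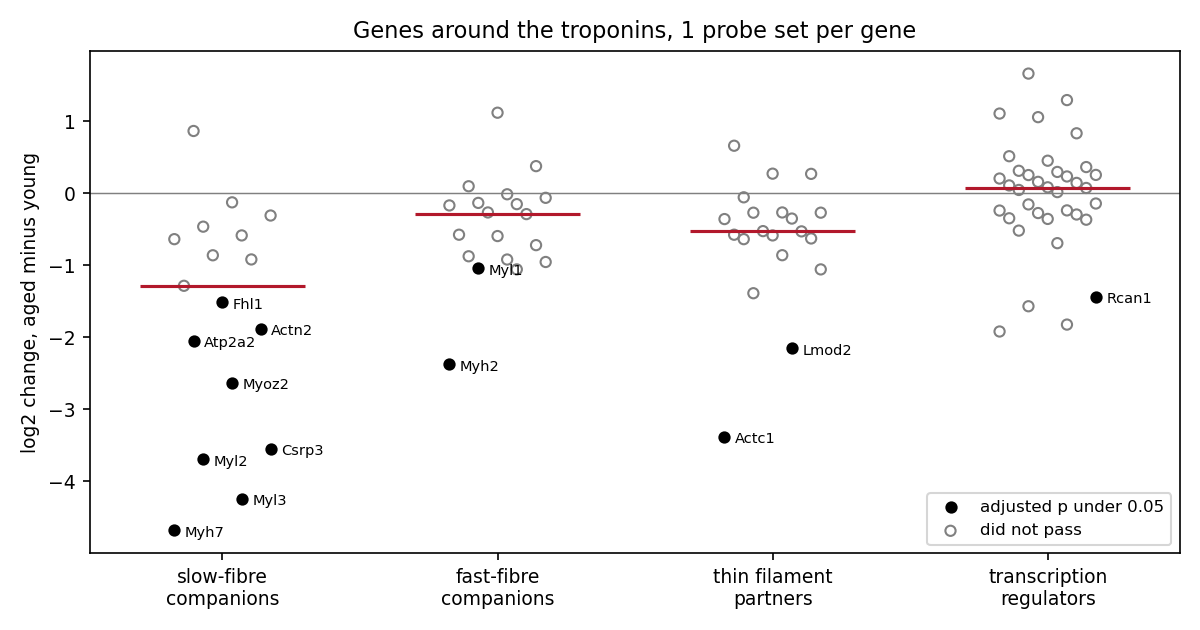
Log2 change, aged minus young, of the measured genes in 4 lists, 1 probe set per gene. Filled points passed an adjusted p of 0.05 and carry their names, open points did not pass, and red bars are medians, from -1.28 for slow-fibre companions to 0.08 for the regulators.

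Among regulators known to act on fibre-type or troponin gene transcription, 36 were measured. Of these 1 fell and 35 did not pass, with a median of 0.08. A count of 1 in 36 is near the background, 1.39% of all measured genes called, and is no result about the list. The called gene was Rcan1, an inhibitor of calcineurin (-1.43 ± 0.26, adjusted p = 0.0191 in limma). It was not called with the station as a covariate or without aged replicate 52 or young replicate 1, 2 or 3. The brightest regulators that did not pass were Mef2c (0.30 ± 0.24), a MEF2 factor, and Vgll2 (0.23 ± 0.24), a partner of TEAD factors.

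Lists of other muscle states were set beside the troponins, and their part in the results was not tested. Over all 11763 measured genes 1.39% were called. A count of 0 in lists this short is near that share and is no result about them. Of 6 measured cardiac markers 0 passed, and the summed signal of all 10 with a probe set was between 24301 and 34557 on aged arrays and between 23535 and 27967 on young arrays, with Nppa, Myl7, Ryr2 and Tbx20 below the dim limit. Gja1, by a probe set of a kind prone to cross-hybridisation, was the largest part of this sum on every array. Its signals were 9068, 17674 and 26179 on aged arrays and 22620, 13405 and 15282 on young arrays, in order of replicates. Of 5 measured markers of embryonic or regenerating fibres 0 passed, and the summed signal of 7 was between 5296 and 7099 on aged arrays and between 8053 and 9893 on young arrays, with Myh8 and Chrng dim. The markers did not all go the way of the sum. Of the 5 measured 4 had a negative change and 1, Mymk, a positive one (0.82). Dim Chrng was at -1.35 and dim Myh8 at 2.80. Signals of Myh8 were 810, 282 and 825 on aged arrays and 116, 128 and 37.8 on young arrays, in order of replicates. Of 6 measured denervation markers 0 passed, and the sums overlapped, between 8537 and 14371 on aged arrays and between 11499 and 13964 on young arrays. Of 2 measured smooth muscle markers 1 fell (Acta2, -1.004 ± 0.194, by a probe set of a kind prone to cross-hybridisation), where 1.00% of all measured genes were called lower. The sum of 6 was between 28234 and 31576 on aged arrays and between 52687 and 63288 on young arrays. Most of this sum was Acta2 alone, at 29240, 26245 and 27174 on aged replicates 51, 52 and 53. On young replicates 1, 2 and 3 Acta2 was at 57144, 49145 and 59933. The 4 dim markers were at 0.40 (Myh11), 1.33 (Cnn1), -2.53 (Smtn) and -1.21 (Lmod1).

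The mean profile of the 3 slow troponins over the 6 arrays was compared with 11085 other named genes by the root mean square difference of centred log2 signals. The nearest were the collagen gene Col5a2 (0.28), the clock output gene Dbp (0.29), the collagen gene Col3a1 (0.30), the proliferation marker Mki67 (0.37), Myl2 (0.38) and Dynlrb1, a dynein light chain (0.41). Tnnc1, Tnni1 and Tnnt1 themselves lay at 0.42, 0.49 and 0.69 from their own mean, and the median over the genes compared was 1.85. These 6 were picked as the nearest of 11085 genes, so their lying nearer than the 3 members themselves carries no weight. Their changes were between -3.89 and -2.72, and Dynlrb1 alone of them did not pass (adjusted p = 0.0663 in limma). The mean profile includes Tnnt1 and Tnni1, whose aged means lay under the dim limit. For the mean profile of the 3 fast troponins the nearest 6 genes, led by the mitochondrial fission gene Dnm1l (0.06) and Slco5a1 (0.07), lay at 0.06 to 0.10, against a median of 0.59. Their changes were between -0.57 and -0.40, and none of these 6 passed (adjusted p between 0.496 and 0.837 in limma).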

How the data were processed

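Total RNA of gastrocnemius in 3 aged and 3 young samples was biotin-labelled and measured on Affymetrix mouse arrays, per the labels. The deposited values are linear intensities per probe set made with MAS5 by the authors, per the submitters' processing notes, whose version and settings they do not state. The mean signal of every array was 1500 once the top and bottom 2% were dropped, a common scale. Other deposited run records gave the fluidics station.

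Intensities were taken to log2, 64 control probe sets were left out, and 22519 of 45037 probe sets, with a mean log2 of at least the median, 9.08, were tested with limma 3.58.1 in R 4.3.3 (lmFit, eBayes with a trend, two-sided, Benjamini-Hochberg adjustment over all of them, threshold 0.05). The table holds no detection calls or saturation flags, and the number of arrays limits the precision. A gene stands by its brightest tested probe set. Slow less fast differences were compared with exact permutation tests over arrays. The limma fit was tested on simulated data.

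The members and lists were chosen with earlier results of these data known. Named are all members, up to 6 called and 2 uncalled genes per list, Acta1, Ckm, Myh7, Myh2, Myh1 and Myh4, and the 6 genes nearest in profile. Alternatives were other normalization, filters, a pseudocount, array weights, station or RNA quality as a covariate, station 1 alone, other spread estimates, arrays or cross-hybridising probe sets left out, and averaged probe sets. Python 3.11.15, numpy 2.4.6, pandas 2.3.3 and matplotlib 3.10.9 were used.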

Additional observations from a re-analysis of the deposited data

How the results depend on the processing

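The 2 calls among the troponin genes, Tnnc1 and Tnnt1, remained in 19 of 20 alternatives each. Some alternatives give the same change, as station as a covariate and station 1 alone do, and are not separate checks. With an unmoderated linear model 0 troponin genes passed (adjusted p = 0.0778 for Tnnc1 and 0.193 for Tnnt1). Of all 22519 tested probe sets 0 passed in that model, where limma called 237. The cause of the changes below was not tested. The count of all probe sets called, 237, became 365 within station 1, 138 with the 3 prime to 5 prime ratio as a covariate, 21 without the trend, and between 124 (without young replicate 2) and 342 (without aged replicate 53) with 1 array left out. Tnnc2 turned to 0.11 with station as a covariate and within station 1, to 0.021 with the ratio covariate, and lay between -0.26 and 0.014 with 1 array left out. Tnni2 was 0.036 with its probe sets averaged, and Tnnt2 lay between -0.44 and 1.39 with 1 array left out. The mean of the 3 slow less fast pairs was -2.51 with the pseudocount, -3.69 with station as a covariate or within station 1, and -3.71 with the ratio covariate. Tnni3 less Tnni2 was 1.97 with station as a covariate and within station 1. With station as a covariate 1 thin filament partner, 1 fast-fibre companion and 0 regulators passed. With 1 array left out the counts lay between 2 and 4 for thin filament partners, 5 and 10 for slow-fibre companions, 1 and 4 for fast-fibre companions, and 0 and 1 for regulators. The stricter filter left out Tnni1 and Tnnt2. No paired analysis was possible because the groups share no replicate numbers. Tnni3, Tnnt2 and the aged signals of Tnni1 and Tnnt1 were near or under the dim limit, where the precision is low.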
